A study of Mus musculus with 11 samples.

Results

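Glutamate receptors and the Homer scaffolds that hold them at synapses were followed here as 10 genes, chosen by name: the AMPA receptor subunits Gria1, Gria2 and Gria4, the NMDA receptor subunits Grin1, Grin2a and Grin2b, the metabotropic receptor Grm5 and the scaffolds Homer1, Homer2 and Homer3. All 10 genes were present among the 24391 promoters and 25802 genes listed, together with 10 CpG islands that overlapped them and 208 tiles of 5000 bp along their length. The study asked whether amphetamine given to pregnant mice alters DNA methylation in the pancreas of their pups. Pregnant C57BL/6N dams received amphetamine (10 mg/kg) or saline on embryonic days 14.5, 15.5 and 16.5, and whole pancreata of wild type pups were taken on the day of birth (P0). Reduced representation bisulfite sequencing (RRBS), which reads CpG methylation next to MspI and TaqI restriction sites, was performed on 5 pancreata from amphetamine-exposed pups (3 females and 2 males) and 6 from saline controls (3 females and 3 males). The litter of each pup was not given, so pups of the same dam may be among them, and the p-values measure the spread between these pups.

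AMPA receptors are cation channels opened by glutamate and carry fast excitatory transmission, and Gria2 encodes the subunit that limits their calcium permeability. NMDA receptors need the Grin1 subunit and bind glutamate through Grin2 subunits, whereas Grm5 is coupled to a G protein and releases calcium from internal stores. Homer proteins bind the tail of Grm5 and join it to other scaffolds and to intracellular calcium channels. Beyond the brain, endocrine cells of the pancreas are known to carry glutamate receptors. In most mammalian genes CpG-rich starts are held free of methylation while the body of the gene is methylated.

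Coverage in these tables was the number of reads over the CpG sites of a region, summed over the region and averaged over the mice of a group. Its median was 230.6 in amphetamine and 184.67 in control pancreata over all promoters, and 446.4 and 359.67 over all genes, so the amphetamine libraries were the deeper ones. Among CpG islands on the X chromosome (n = 396) the median level was 28.1% in females and 2.55% in males. Among the gene values, 5 genes of acinar cells, the main cell type of the pancreas, ran from Cpa1 (59.5% in amphetamine and 58.2% in control) to Pnlip (96.1% and 94.4%), and 4 genes of other organs from Myh6 (81.4% and 81.3%) to Ttn (86.8% and 88.4%) and Sftpc (88.3% and 86.4%). The lists overlapped at Pnlip in both groups and at Cel in control (81.8%), so gene methylation did not check the labelled tissue. Cpa1, Cela2a and Ctrb1 lay below Myh6 in both groups, and so did Cel in amphetamine (67.0%). Methylation of a whole organ averages over its cells, so a shift in cell composition and a shift within cells cannot be told apart.

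To show what the assay could read, promoter stretches of 200 bases were taken from the GRCm38 genome upstream of the start in the tables, outside every annotated exon, at the place with most CpG sites within 50 bases of a restriction site. They are printed for Gria1 and Homer2, for both parts of the Grin1 promoter, and for Grm5, which include promoters of low, intermediate and high methylation. Capitals mark CpG sites, and each sequence reads 5′ to 3′ on the strand of its gene.
Gria1 (chr11:57010213-57010412, plus strand): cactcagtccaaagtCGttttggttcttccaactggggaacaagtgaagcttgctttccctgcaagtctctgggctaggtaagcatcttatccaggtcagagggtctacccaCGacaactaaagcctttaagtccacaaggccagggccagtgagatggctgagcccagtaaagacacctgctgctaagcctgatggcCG
Homer2 (chr7:81706973-81707172, minus strand): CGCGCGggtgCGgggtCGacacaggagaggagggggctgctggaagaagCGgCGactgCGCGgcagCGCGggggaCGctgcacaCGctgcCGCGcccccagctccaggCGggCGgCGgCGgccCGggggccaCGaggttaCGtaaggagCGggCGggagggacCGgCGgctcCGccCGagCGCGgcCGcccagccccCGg
Grin1 beside the start (chr2:25319188-25319387, minus strand): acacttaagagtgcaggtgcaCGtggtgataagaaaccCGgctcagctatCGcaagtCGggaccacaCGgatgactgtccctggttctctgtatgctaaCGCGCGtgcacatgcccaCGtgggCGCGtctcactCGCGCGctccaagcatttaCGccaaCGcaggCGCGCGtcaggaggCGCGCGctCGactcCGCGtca
Grin1 upstream (chr2:25320426-25320625, minus strand): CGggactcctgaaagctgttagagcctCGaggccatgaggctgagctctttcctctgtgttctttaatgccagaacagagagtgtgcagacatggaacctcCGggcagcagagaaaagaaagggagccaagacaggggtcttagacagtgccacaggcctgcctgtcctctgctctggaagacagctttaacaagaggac
Grm5 (chr7:87601272-87601471, plus strand): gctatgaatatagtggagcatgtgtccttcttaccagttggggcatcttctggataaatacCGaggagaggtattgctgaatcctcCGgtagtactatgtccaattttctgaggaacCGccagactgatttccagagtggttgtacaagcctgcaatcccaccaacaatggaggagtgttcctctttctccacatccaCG
The Homer2 stretch held 32 CpG sites, of which 31 lay within reach of a restriction site, whereas the Gria1 stretch held 3 with 1 in reach. Beside the Grin1 start 25 CpG sites were found and 17 were in reach, against 3 and 3 in the stretch that begins 1239 bases upstream. The Grm5 stretch held 4 CpG sites with 3 in reach. The Homer2 and Grm5 stretches lie inside the longer genes that GENCODE M21 annotates, in introns, and the Homer2 stretch is part of a CpG island. MspI cuts at CCGG and TaqI at TCGA, and both motifs read the same on either strand. CCGG was present in 10 of 10 member promoters and in 99.9% of all promoters of this length, TCGA in 7 of 10 and in 82.3%.

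The number of CpG sites that could be read differed widely among the promoters, each of which covers 1500 bp upstream and 500 bp downstream of the start. Homer2 had 115 sites in reach of its 130, Homer1 99 of 111, Grin2a 71 of 112, Grin1 56 of 94 and Gria2 46 of 59. Fewer were in reach at Homer3 (38 of 73), Grin2b (23 of 56), Gria4 (21 of 45), Gria1 (7 of 29) and Grm5 (5 of 12), beside a median of 31 of 58 over all promoters. The order of these counts did not follow the order of methylation (Spearman's rho = -0.03 over the 10 genes, which share the same libraries).

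Promoters of the family ranged from unmethylated to nearly fully methylated. Levels over the 11 mice were under 5% at 6 of the 10 promoters, a bound that 43.5% of all promoters met. These 6 were Gria4 (0.807%), Homer3 (0.911%), Gria1 (1.38%), Homer1 (2.43%), Homer2 (2.56%) and Grin2a (4.31%). The other 4 stood apart, with Gria2 at 10.8%, Grin2b at 21.4%, Grin1 at 45.4% and Grm5 at 88.0%. Grm5, whose receptor signals through calcium stores, was thereby higher than 88.3% of all promoters, and Gria4 higher than 3.03%.

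Promoter rows could join stretches that differed in level. At Grin1, which encodes the obligatory NMDA receptor subunit, the CpG island at the start (chromosome 2, 25318727 to 25319366, mm10) was at 8.70% ± 17.4 (SD, n = 4) in amphetamine and 0% in all 3 controls with calls, on a mean coverage of 20.6 and 5.33. The tile just upstream (25320001 to 25325000) was at 58.2% ± 17.6 (n = 5) and 56.0% ± 14.0 (n = 6) on a coverage of 82.6 and 99.5. The value of 45.4% for the Grin1 promoter thus joined an island that was hardly read with a methylated stretch upstream of it. At Grm5 the start in the tables lay 18376 bp inside the gene of GENCODE M21, whose annotated start is further upstream. The tile just downstream of that annotated start (chromosome 7, 87585001 to 87590000) was at 20.0% ± 16.02 (n = 5) and 10.8% ± 12.1 (n = 6), against 87.9% and 89.9% in the tile that holds the start in the tables. GENCODE M21 starts also lay upstream at Homer1 (4122 bp), Grin2a (639 bp) and Homer2 (602 bp), and coincided for Gria1, Gria2, Gria4, Grin1, Grin2b and Homer3.

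Over whole genes the 10 members ran from 12.6% to 81.0%, with a median of 58.7% beside 53.0% over all genes. Homer1 was lowest (12.6%), followed by Homer3 (32.3%) and Grin1 (36.9%). Gria2 (51.7%) and Grin2a (54.8%) came next, and Homer2 (62.6%) and Grin2b (63.4%) lay within each other's spread between mice, as did Grm5 (80.9%) and Gria4 (81.0%). Gria1 stood between the last 2 pairs at 71.5%.

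**Figure D1:**
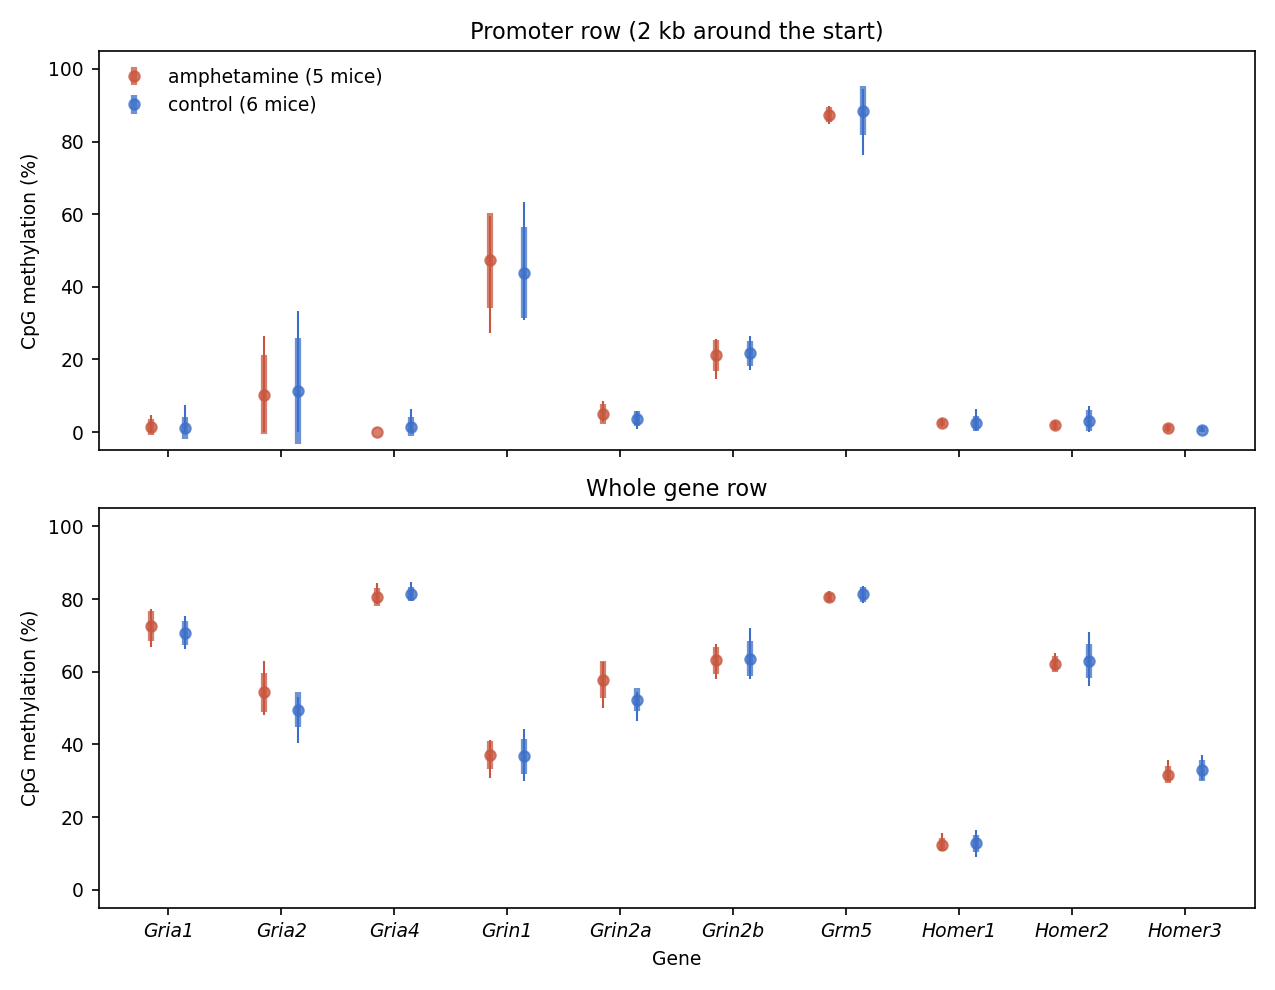
CpG methylation (%, vertical axis) of the promoter (upper plot) and the whole gene (lower plot) of each member in amphetamine-exposed (n = 5) and control (n = 6) pancreata. Points are group means, thick bars the SD and thin lines the lowest and highest mouse, and the ranges of both groups overlap for every gene, from Gria4 at 0.807% to Grm5 at 88.0% among promoters.

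The gene level went along with how much of the coverage lay at the start. The tile holding the start took 77.6% of the tile coverage of Homer1, 73.9% of Homer3 and 56.3% of Gria2. It took 35.8% at Grin2a, 25.5% at Grin2b, 12.9% at Gria1, 10.6% at Homer2, 10.3% at Gria4 and 1.65% at Grm5. That tile was under 30% methylated in 9 of 10 genes, the exception being Grm5 at 89.0%. Among the 198 remaining tiles 186 were above 50%, and 5 were under 20%. Over the 10 genes, which share libraries, Spearman's rho of start coverage and gene level was -0.61. Gene and tile values rest largely on the same reads, so the 2 measures are not independent. Grin1 departed from this order, since its start tile held 0.65% of the coverage and its gene level was nevertheless 36.9%. Grin1 has 2 further CpG islands within the gene, at 4.56% and 2.45% (25292156 to 25292479) and at 7.85% and 1.08% (25311239 to 25311568) in amphetamine and control.

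**Figure D2:**
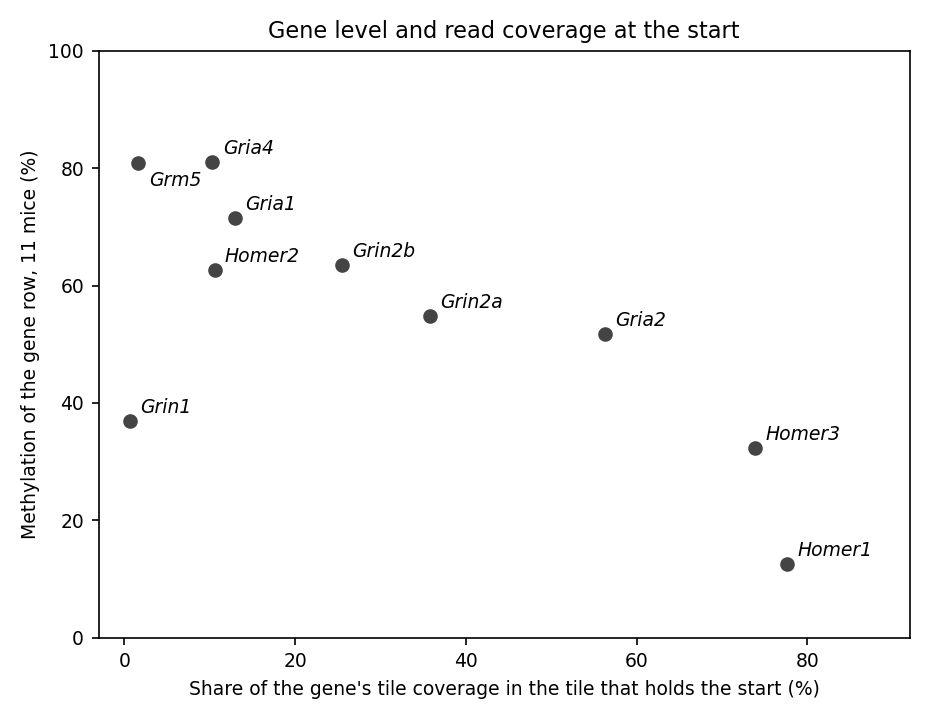
Methylation of the gene over the 11 mice (%, vertical axis) against the share of its tile coverage that fell in the tile with the start (%, horizontal axis), 1 point for each member. Homer1 and Homer3 sit at the lower right with 77.6% and 73.9% of coverage at the start, Grm5 and Gria4 at the upper left, and Grin1 apart at the lower left.

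Between amphetamine and control pancreata, the difference passed the adjusted test at no member promoter or gene. Of the 10 promoters 5 were higher and 5 lower in amphetamine, with a median difference of -0.23 percentage points beside 0 over all promoters. Of the 10 genes 4 were higher and 6 lower, with a median of -0.40 beside -0.09 percentage points over all genes. At an adjusted p under 0.05 (moderated limma test, Benjamini-Hochberg over the table), 0 of 10 promoters and 0 of 10 genes were called, where the share called among all promoters was 0.0164% and among all genes 0.0116%. At an unadjusted p under 0.05 it was 0 of 10 promoters (4.11% of all promoters) and 1 of 10 genes (4.38% of all genes), namely Grin2a. The lowest adjusted p of the members was 0.958 for promoters and 0.984 for genes. Group ranges overlapped at each of these promoters and genes, where 0.395% of all promoters and 0.312% of all genes with calls in all 11 mice had ranges apart.

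Gria1, an AMPA receptor subunit, spans 57011387 to 57330244 on chromosome 11 (plus strand, mm10). Amphetamine mice had 66.8% at the lowest and 77.3% at the highest around a mean of 72.5% ± 4.12 (SD, n = 5), and controls 66.3% and 75.3% around 70.7% ± 3.22 (n = 6). The ranges thus covered nearly the same span, and the difference of 1.81 percentage points (SE 2.21, 95% interval -3.11 to 6.73) was smaller than either SD (adjusted p = 0.985, limma). Averaged instead over its tiles, weighted by coverage, Gria1 gave a difference of -0.66 percentage points, so the direction rested on how the gene was summarised. At its promoter the groups stood at 1.54% ± 2.21 and 1.24% ± 3.05, with the highest mouse at 4.78% and 7.46% and the lowest at 0% in each. Both groups were therefore close to unmethylated there, with a difference of 0.29 percentage points (95% interval -3.31 to 3.90).

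The other AMPA receptor genes among the members lay on either side of Gria1. Gria2 (chromosome 3, 80681450 to 80802835, minus strand) had 48.1% to 62.9% in amphetamine (54.3% ± 5.45, n = 5) and 40.2% to 53.1% in control mice (49.6% ± 4.79, n = 6). The upper end of the amphetamine mice exceeded every control, yet the groups overlapped, and the difference of 4.73 percentage points had an interval of -1.92 to 11.4 (SE 2.996, adjusted p = 0.984, limma). Its promoter differed by 1.01 percentage points in the opposite direction (10.3% ± 10.9 against 11.3% ± 14.6, interval -17.9 to 15.9), while the tile holding its start was higher by 6.93. Gria4, a subunit of fast AMPA receptors (chromosome 9, 4417899 to 4796234, minus strand) was 0.91 percentage points lower in amphetamine over the gene (80.5% ± 2.50 against 81.4% ± 1.92, interval -4.17 to 2.35). At the Gria4 promoter all 5 amphetamine mice were at 0%, while controls ran from 0% to 6.41% around 1.48% ± 2.61, a difference of -1.48 percentage points with an interval from -4.14 to 1.18. Coverage there was 174.6 and 159.67, with the least covered amphetamine mouse at 36 reads.

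Homer2, a scaffold that binds the tail of Grm5, spans 81600481 to 81706925 on chromosome 7 (minus strand). Its gene ran from 60.3% to 65.1% in amphetamine (62.2% ± 2.19, n = 5) and from 56.1% to 70.9% in control mice (62.9% ± 4.77, n = 6). The control range enclosed that of amphetamine, and amphetamine was lower by 0.71 percentage points (SE 2.32, interval -5.86 to 4.44, adjusted p = 0.996, limma). Averaged over its tiles Homer2 was higher by 0.16, so this direction too depended on the summary. At the promoter amphetamine mice had 0.556% to 2.98% (1.83% ± 1.05) and controls 0% to 7.24% (3.16% ± 2.93). Again the controls spanned the wider range, and amphetamine was lower by 1.34 percentage points (SE 1.39, interval -4.43 to 1.76, adjusted p = 0.958, limma). The CpG island at this promoter (81706541 to 81707203) gave 1.29% ± 1.03 and 2.63% ± 2.85, the same difference of 1.34 percentage points to 3 digits. Its coverage was 348.0 and 180.67, against 348.8 and 186.0 for the promoter. The 2 values thus rest on nearly the same reads and are not separate measurements.

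Homer1, which also gives rise to a short isoform induced by neuronal activity, and Homer3 also had overlapping groups. Homer1 (chromosome 13, 93303757 to 93404129, plus strand) was at 12.4% ± 1.82 in amphetamine and 12.8% ± 2.41 in control mice over the gene, lower by 0.35 percentage points (interval -3.58 to 2.88). Its promoter, read at a coverage of 857.6 and 598.5, was at 2.47% ± 0.914 and 2.40% ± 2.16, a difference of 0.07 (interval -2.32 to 2.46), the smallest of the 10 promoters. Homer3 (chromosome 8, 70282827 to 70294361, plus strand) was at 31.7% ± 2.42 and 32.9% ± 2.90, lower by 1.24 percentage points (interval -5.06 to 2.57). Its promoter was at 1.22% ± 0.832 and 0.656% ± 0.760. The CpG island there (70283086 to 70283514) was at 6.33% ± 10.8 and 1.34% ± 2.34, a difference of 4.99 percentage points (interval -4.59 to 14.6) with single amphetamine mice from 0% to 25.0%. The Homer1 island (93303527 to 93304637) was at 2.26% ± 0.627 and 2.11% ± 1.83. All 3 Homer genes were thus lower in amphetamine by 0.35 to 1.24 percentage points, each by less than the SD of either group. The gene Ddx49 overlaps Homer3, so calls in the overlap belong to both genes.

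Among NMDA receptor subunits Grin2a showed the widest gap between the groups. Grin2a (chromosome 16, 9577710 to 9994921, minus strand) ran from 49.9% to 62.8% in amphetamine (57.8% ± 5.05, n = 5) and from 46.5% to 54.4% in control mice (52.3% ± 3.22, n = 6). The ranges overlapped between 49.9% and 54.4%. The difference of 5.53 percentage points (SE 2.47, interval 0.04 to 11.03) exceeded both SDs and was larger than at 77.1% of all genes, but its adjusted p was 0.984 (limma). Its promoter was at 4.98% ± 2.87 and 3.75% ± 2.05. Of its 3 CpG islands, those at the promoter (2.59% and 1.46%) and at 9993621 to 9994261 (3.34% and 1.19%) were low in both groups. The island within the gene at 9992253 to 9992477 had the widest gap, with 5.08% to 48.3% in amphetamine (27.8% ± 17.1) and 5.29% to 26.7% in control mice (14.4% ± 8.49). Its difference of 13.4 percentage points had an interval of -3.36 to 30.3 (adjusted p = 0.923, limma).

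At Grin1 and Grin2b the group means lay closer together. Grin1 (chromosome 2, 25291181 to 25319187, minus strand) was at 37.1% ± 3.91 and 36.8% ± 4.84 over the gene, a difference of 0.30 percentage points (interval -5.59 to 6.18). Its promoter scattered from 27.2% to 59.4% in amphetamine and from 30.7% to 63.2% in control mice, and the difference of 3.42 percentage points came with an interval of -13.1 to 19.9. Grin2b (chromosome 6, 135713232 to 136173511, minus strand) was at 63.2% ± 3.67 and 63.6% ± 4.85 over the gene and at 21.1% ± 4.37 and 21.7% ± 3.41 at the promoter. It was lower in amphetamine by 0.46 and 0.54 percentage points. Other annotated transcripts overlap both genes, Grin1os at Grin1 and Gm14329, Gm14330 and Gm26653 at Grin2b.

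Grm5, the metabotropic receptor that Homer proteins bind, spans 87602544 to 88134907 on chromosome 7 (plus strand). Its gene ran from 79.3% to 82.1% in amphetamine (80.5% ± 1.22, n = 5) and from 78.9% to 83.6% in control mice (81.3% ± 2.09, n = 6), lower by 0.90 percentage points (interval -3.70 to 1.91). Its promoter, read at a coverage of 30.2 and 20.333, was at 87.3% ± 2.07 and 88.5% ± 6.66. The CpG island near the end of the gene (88130188 to 88130695) was at 13.1% ± 5.51 and 9.78% ± 6.41.

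Set side by side, the treatment differences of Gria1 and Homer2 lay between those of their relatives among the members over the gene. At the promoter they lay outside them. Over the gene Gria1 (1.81 percentage points) fell between Gria2 (4.73) and Gria4 (-0.91), and Homer2 (-0.71) between Homer1 (-0.35) and Homer3 (-1.24). At the promoter Gria1 (0.29) lay above Gria2 (-1.01) and Gria4 (-1.48), and Homer2 (-1.34) below Homer1 (0.07) and Homer3 (0.56). By tiles weighted by coverage Homer2 (0.16) lay above Homer1 (-0.79) and Homer3 (-2.01). The gene intervals of the 3 AMPA receptor genes among the members overlapped, as did those of all 3 Homer genes. In size, the Gria1 difference was larger than at 40.8% of all genes and the Homer2 difference than at 18.6%. No test between genes was made, because it needs the values of single mice.

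**Figure D3:**
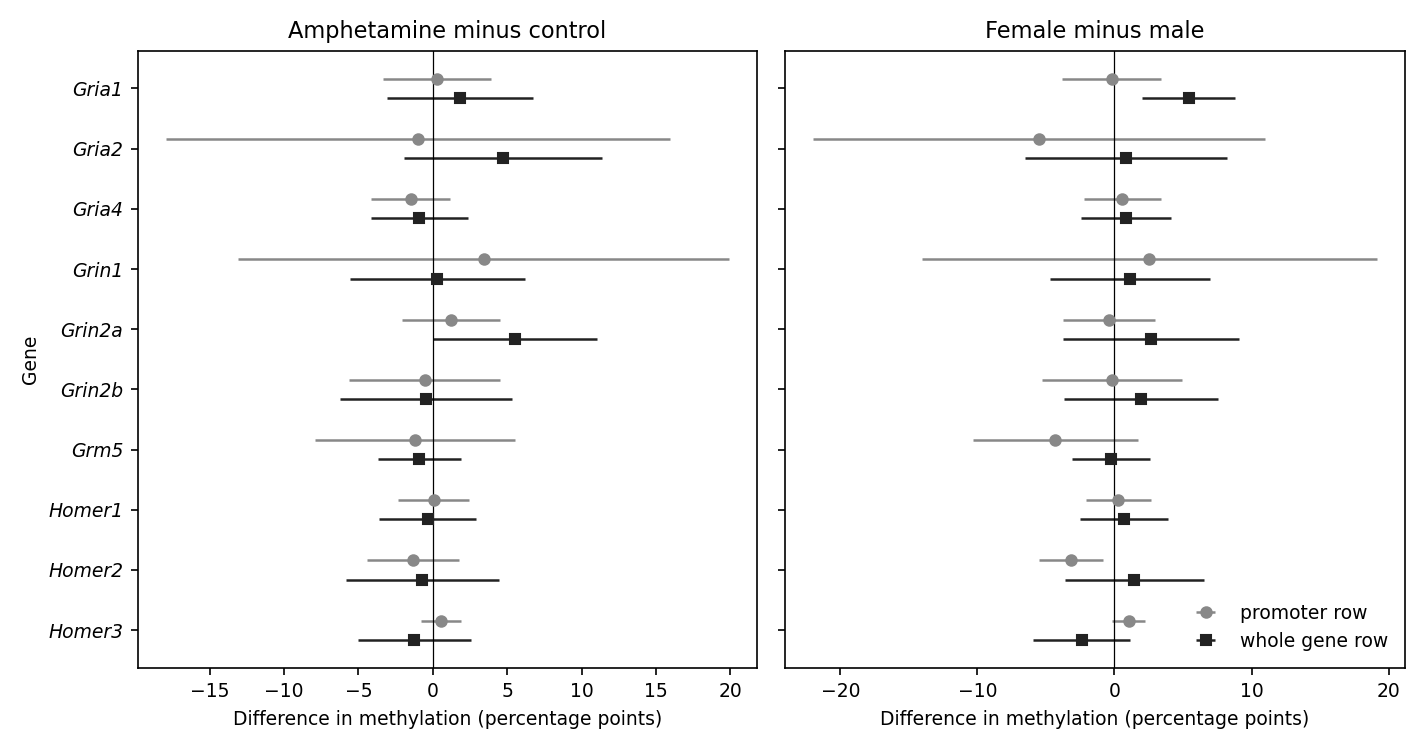
Difference in methylation (percentage points, horizontal axis) of each member between amphetamine and control (left) and between females and males (right), for promoters (circles) and whole genes (squares), with 95% intervals. On the left the Grin2a gene alone has an interval that excludes 0 (0.04 to 11.03), and on the right the Gria1 gene (2.03 to 8.83) and the Homer2 promoter (-5.49 to -0.86) do.

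Along the genes, tiles differed in either direction. Of the 208 tiles tested, out of 503 that the genes span, 110 were higher and 93 lower in amphetamine and 5 were equal, with a median difference of 0.32 percentage points beside 0 over all tiles. At an adjusted p under 0.05 it was 0 of 208 tiles (0.0185% of all tiles, limma), with a lowest adjusted p of 0.932, and at an unadjusted p under 0.05 it was 9 of 208, or 4.33%, beside 4.4% of all tiles. Of these 9 tiles 6 were lower and 3 higher, and they lay in Grin2b (4), Grm5 (4) and Grin2a (1), while Gria1 (28 tiles) and Homer2 (18 tiles) held 0. Gria1 had 15 tiles higher and 13 lower, Homer2 had 9 and 9, Gria2 had 6 and 1, and Grin2a had 19 and 9. Of the 10 CpG islands 9 were higher and 1, that of the Homer2 promoter, was lower, where 48.7% of all CpG islands were higher and 48.9% lower. Grin1 and Grin2a each held several of the 10, and the Grin1 promoter island had calls in only 4 amphetamine and 3 control mice. The median difference was 2.72 percentage points beside 0 over all CpG islands. Of the 10, 0 were called (0.0135% of all CpG islands) and 0 had an unadjusted p under 0.05 (4.1% of all CpG islands). Ranges were apart at 0 of the 8 with calls in all mice (0.443% of all CpG islands).

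A Grm5 tile was the only 1 of the 149 member tiles with calls in all mice whose groups did not overlap, where 0.351% of all such tiles had ranges apart. It lies in an intron at 88060001 to 88065000 and had 69.2% to 90.1% in amphetamine (81.9% ± 8.53, n = 5) and 94.1% to 98.9% in control mice (96.4% ± 1.74, n = 6). Every amphetamine mouse was thus below every control, by 14.5 percentage points on average (interval -22.3 to -6.65), at a coverage of 359.0 and 352.67. Its adjusted p was 0.932 (limma). The next tile along the gene (88065001 to 88070000) was also lower in amphetamine, by 8.79 percentage points (79.8% against 88.5%, adjusted p = 0.965, limma). In Grin2b, the intronic tile with the lowest p (136095001 to 136100000) was at 68.5% and 89.4%, lower by 20.97 percentage points (adjusted p = 0.965, limma). An intronic Grm5 tile read at a coverage of 8.2 and 8.33 (87620001 to 87625000) went the other way, with 98.0% and 80.3%. The Grin2a tile of the 9 (9760001 to 9765000, with an exon) was at 84.5% in 4 amphetamine and 96.7% in 6 control mice, against the direction of the Grin2a gene.

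Among tiles with calls in every mouse and coverage averaging 10 or more per group, the widest gap in each gene came with a wide spread between mice. For Gria1 it was an intronic tile (57045001 to 57050000) at 82.2% ± 28.5 and 65.7% ± 43.4, where single controls ran from 0% to 100%. Mean coverage of this tile was 54.6 and 19.5, and the least covered control mouse had a coverage of 1. The part of low coverage in this range was not tested. For Homer2 it was an exonic tile (81685001 to 81690000) at 42.7% ± 28.7 and 69.6% ± 20.0, lower by 26.9 percentage points with an unadjusted p of 0.0826 and an adjusted p of 0.965 (limma). For Grin2b (135915001 to 135920000) the means were 80% and 45.1%, and for Grm5 (88015001 to 88020000) 62.2% and 89.2%. The remaining widest gaps ran from 1.86 percentage points at Grin1 (75.1% and 73.3%) to 17.4 at Grin2a (88.7% and 71.3%). Those of Gria2 (61.8% and 45.1%), Gria4 (72.1% and 83.5%), Homer1 (85.3% and 89.3%) and Homer3 (84.3% and 89.2%) lay in between. The tiles holding the start differed by 4.41 percentage points at Gria1 (29.4% ± 8.60 against 25.0% ± 15.97) and by -1.37 at Homer2 (11.1% ± 2.51 against 12.5% ± 3.95). Start tiles of Homer1 (2.64% and 3.07%), Homer3 (2.13% and 3.56%), Grin2a (9.92% and 7.14%) and Grin2b (13.5% and 11.8%) differed by less than 3 percentage points, and that of Gria4 had the same levels and coverage as its promoter.

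**Figure D4:**
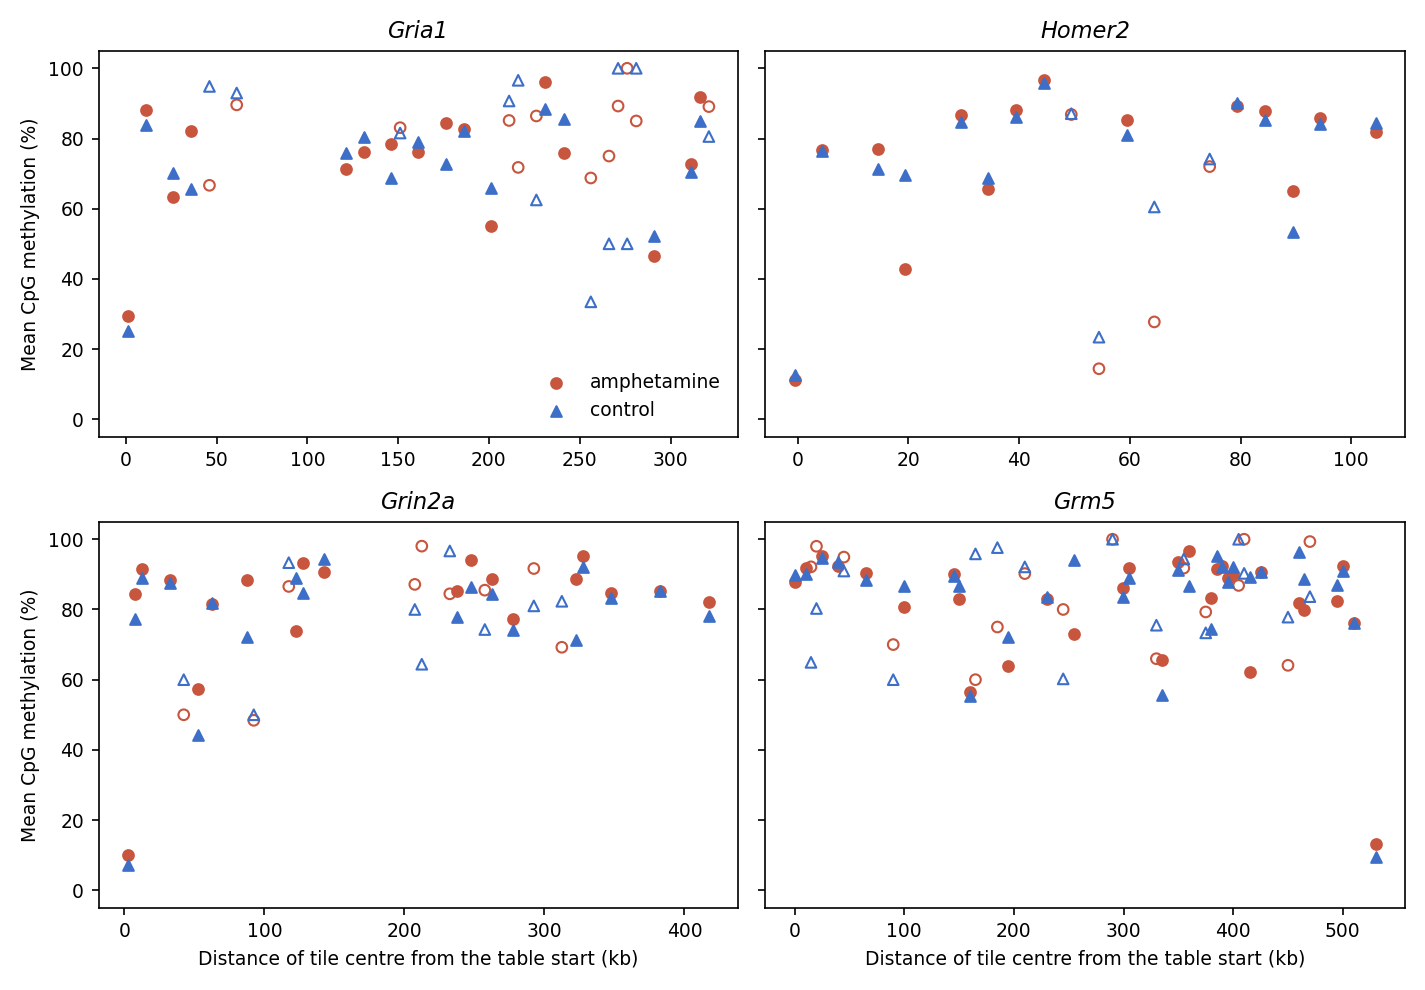
Mean methylation (%, vertical axis) of tiles of 5000 bp along Gria1, Homer2, Grin2a and Grm5 in amphetamine (circles) and control (triangles) pancreata against the distance from the start in the tables (kb, horizontal axis). Filled symbols are tiles with calls in every mouse and coverage averaging 10 or more per group, and open symbols the other tiles. Low values sit at the start of Gria1, Homer2 and Grin2a, whereas Grm5 starts at 87.9% and 89.9% and is low in the tile of its CpG island near the end (13.3% and 9.53%).

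The same mice were compared by sex. Here Gria1 and Homer2 had the lowest p-values among the promoters and genes of the family, without passing adjustment. The authors had already singled out both genes in these mice, for changes with sex and with amphetamine. Their tests included single base pairs and promoters, so whole-gene and tile values are not the same measure. For amphetamine, too, neither gene nor its promoter passed adjustment here. Members were chosen with such earlier results known, so this rank is not independent evidence of a sex difference. Gria1 was at 70.9% to 77.3% in females (74.0% ± 2.41, n = 6) and 66.3% to 71.0% in males (68.6% ± 2.20, n = 5) over the gene. The ranges touched only at their ends, at 70.9% in the lowest female and 71.0% in the highest male. Females were higher by 5.43 percentage points (SE 1.53, interval 2.03 to 8.83, adjusted p = 0.376, limma), beside a treatment difference of 1.81. The lowest mouse of all was a control male at 66.3% and the highest an amphetamine-exposed female at 77.3%. At the Homer2 promoter females had 0% to 2.56% (1.11% ± 0.913) and males 2.22% to 7.24% (4.29% ± 2.27). Mean coverage there was 231.83 in females and 293.8 in males, with the least covered mouse at 43 and 188. Females were lower by 3.17 percentage points (SE 1.04, interval -5.49 to -0.86, adjusted p = 0.529, limma), beside a treatment difference of -1.34. The amphetamine group held 2 males of 5 and the control group 3 of 6, and without values of single mice the treatment difference could not be fitted with sex as a term.

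At the relatives the order of the differences by sex (females minus males) varied between gene and promoter, and the genes could not be tested against each other. Over the gene Gria2 and Gria4 differed by 0.84 and 0.82 percentage points, and at the promoter by -5.50 and 0.58, beside -0.21 at the Gria1 promoter. Homer1 and Homer3 differed by 0.27 and 1.04 at the promoter and by 0.71 and -2.40 over the gene, beside 1.44 over the Homer2 gene. The difference at the Gria2 promoter was thus as large as that over the Gria1 gene, with single mice from 0% to 25.0% in females and from 0% to 33.3% in males. Over all members 8 of 10 genes and 4 of 10 promoters were higher in females, beside 53.2% of all genes and 50.4% of all promoters. The member medians were 0.99 and -0.20 percentage points, beside 0.26 and 0.03 over all genes and all promoters. At an adjusted p under 0.05 it was 0 of 10 for promoters (0.564% of all promoters), 0 of 10 for genes (0.373%), 0 of 10 for CpG islands (1.09%) and 0 of 208 for tiles (0.076%) by limma. At an unadjusted p under 0.05 it was 1 of 10 promoters (6.07% of all promoters), 1 of 10 genes (6.5% of all genes), 2 of 10 CpG islands (6.65%) and 14 of 208 tiles (5.59% of all tiles). Ranges were apart at 0 of 10 promoters (1.55% of all promoters), 0 of 10 genes (1.03%), 0 of 8 CpG islands with calls in all mice (1.91%) and 1 of 149 tiles (0.626%). All members lie on autosomes, whereas these shares include X and Y. Without X and Y the calls by adjusted p fell from 137 to 3 promoters and from 96 to 1 gene.

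Those 2 islands were that of the Homer2 promoter (0.840% in females and 3.43% in males) and the Grin2a island at 9992253 to 9992477. The Homer2 island, at a coverage of 228.67 and 290.4, rests on nearly the same reads as the Homer2 promoter. The Grin2a island was at 29.0% ± 13.6 in females (n = 6) and 10.3% ± 5.98 in males (n = 5), a difference of 18.7 percentage points (interval 4.67 to 32.7, adjusted p = 0.483, limma). Gria1, with 28 tiles tested, held 6 of the 14 tiles, 5 of them higher in females. These tiles share reads with the Gria1 gene value and are not separate evidence of a sex difference. The tile with ranges apart was the sixth, an intronic Gria1 tile (57300001 to 57305000) at 8.33% to 55.0% in females (38.2% ± 16.5) and 55.6% to 72.2% in males (63.5% ± 6.48). It was thus lower in females by 25.3 percentage points, against the direction of the whole gene (adjusted p = 0.706, limma). A Homer2 tile within an intron (81625001 to 81630000), read at a coverage of 607.33 and 629.2, was at 93.9% in females and 84.4% in males (adjusted p = 0.669, limma).

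The wider glutamate pathway was described by 61 genes, the members among them: AMPA, kainate, NMDA, delta and metabotropic receptors, Homer and other postsynaptic scaffolds, auxiliary subunits and glutamate transporters. Promoter values were present for 58 and gene values for all 61. Between amphetamine and control 26 promoters were higher and 32 lower (median -0.27 percentage points), and 32 genes were higher and 29 lower (median 0.11), with 0 promoters and 0 genes called at an adjusted p under 0.05 by limma. At an unadjusted p under 0.05 it was 2 of 58 promoters (4.11% of all promoters) and 3 of 61 genes (4.38% of all genes). By family, 1 of 4 AMPA receptor promoters was higher (median -1.24 percentage points), 0 of 4 kainate (median -1.58) and 5 of 7 NMDA receptor promoters (median 1.72), where 48.6% of all promoters were higher and 49.5% lower. Over the gene it was 3 of 4, 2 of 5 and 4 of 7, beside 47.9% of all genes. Metabotropic receptor promoters (8) had a median of -0.32 and promoters of other postsynaptic scaffolds (15) a median of 0.17 percentage points, auxiliary subunits (8) -1.84, transporters (7) 0.32 and delta receptors (2) 1.02.

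Genes behind these counts are named although they were picked after their values were seen. The promoter of the X-linked scaffold Dlg3 was at 34.2% ± 31.8 and 3.97% ± 9.72. Split by sex, this promoter stood at 0% in all 5 males and at 32.4% ± 28.7 in the 6 females, and the part of sex in its treatment difference was not tested. The scaffold gene Shank2 was at 68.6% ± 1.26 (n = 5) and 65.2% ± 2.14 (n = 6), and Slc1a1, a glutamate transporter, at 49.8% ± 3.71 and 58.7% ± 7.67, beside Grin2a. By sex 7 of 58 promoters (6.07% of all promoters) and 5 of 61 genes (6.5% of all genes) had an unadjusted p under 0.05, and 0 passed adjustment by limma. Ranges were apart at 1 of 61 genes (1.03% of all genes), namely Dlg2, a scaffold of NMDA receptors. Dlg2 was at 76.9% to 79.6% in females and 74.9% to 76.8% in males over the gene, a difference of 1.83 percentage points (interval -0.26 to 3.92).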

How the data were processed

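DNA methylation was measured by RRBS in pancreas of 5 amphetamine-exposed and 6 saline control mice at P0. Per the labels and the study's methods, single-end reads of 50 bp were aligned to mm10 with Bismark in a Nextflow pipeline and summarised by region with RnBeads; the submitters' processing notes also name limma and methylKit, and versions of these tools are not given in the sources used here. The authors deposited, for promoters, genes, CpG islands and tiles, the group mean, SD, lowest and highest methylation as a fraction (beta value), and the coverage signal as a mean read count per region and group, which came out whole after multiplying by the number of mice for 100% of genes (tolerance 1e-06). Fractions were multiplied into percent. The authors' comparison columns (differences, ratios, p-values, adjusted p-values and ranks) were not used, and 0 columns of per-sample values were left out. How the authors weighted CpG sites within a region is not given.

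Group means were compared with a two-sided moderated test rebuilt from mean, SD and n with limma 3.58.1 (squeezeVar, R 4.3.3) over all regions of a table with values in at least 2 mice per group. P-values were adjusted by Benjamini-Hochberg over the table (24360 promoters, 25779 genes, 14829 CpG islands and 259187 tiles for treatment), with a threshold of 0.05, and intervals are 95% intervals of the difference. The code was tested on simulated data. Without values of single mice, neither a sex term in the treatment fit, nor a logit scale, nor a test between genes could be had. Restriction sites, exons and sequences were read from the GRCm38 genome with GENCODE M21 and RefSeq exons. On 21 of 21 chromosomes the listed regions ended within the length of the reference. Alternatives were a prior variance following the methylation level, spread not shared, complete regions, coverage of at least 10 or 30, no sex chromosomes, unadjusted p, ranges apart and other summaries of each gene.

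The named genes were all 10 members, each with its promoter, gene, islands, start tile and well-covered tile of largest difference, the last of these in less detail for some members. From the wider list, names were to be given for called genes or genes with ranges apart, and any others are marked. Members and lists were chosen with earlier results of these data known. A promoter counted in the wider list is not reported here.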

Additional observations from a re-analysis of the deposited data

How the results depend on the processing

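At an adjusted p under 0.05 (limma) 0 members were called in each of the 4 tables and both comparisons, and this held under all 6 other fits. Over the 238 differences of member promoters and genes recomputed under these fits, the lowest adjusted p was 0.381 (limma). Islands and tiles are not in this minimum. Between amphetamine and control the calls among all regions were few and moved with the fit. The 4 promoters called became 0 with regions complete in all 11 mice and with a coverage of at least 10 or 30. The 3 genes became 5 with a prior variance following the level and 0 under the same 3 filters. The 2 CpG islands became 1 with that prior, 0 when complete, and 1 at either coverage. The 48 tiles became 30 with that prior, 1 when complete, 4 at a coverage of 10 and 2 at 30. Unadjusted p-values under 0.05 were found for 1001 promoters, 1129 genes (1 member), 608 CpG islands and 11395 tiles (9 members), and ranges were apart for 83, 74, 60 and 726 (1 member tile).

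Between females and males, leaving out X and Y lowered the calls from 137 to 3 promoters, from 96 to 1 gene, from 161 to 1 CpG island and from 196 to 72 tiles. Sex tiles numbered 78 when complete, 81 at a coverage of 10 and 90 at 30. Unadjusted p-values under 0.05 were found for 1475 promoters (1 member), 1673 genes (1 member), 985 CpG islands (2 members) and 14419 tiles (14 members), and ranges were apart for 325, 245, 258 and 1294 (1 member tile).

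Of 35 treatment differences summarised another way 10 changed sign, among them the Gria1 gene (-0.66 percentage points by tiles weighted by coverage), the Homer2 gene (0.16 by weighted tiles and 1.28 by the median tile) and the Gria2 promoter (6.93 by the start tile); the cause was not tested. Leaving out each mouse in turn was not run, since only group values were used here. No paired analysis was made, because amphetamine and saline were given to different dams and the litter of each pup was not given. Depth limits the reading at the Grin1 promoter island and the Grm5 promoter, with a mean coverage of 5.33 and 20.333 in control mice.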

Other observations

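Because each mouse belongs to a treatment and a sex, the lowest and highest values of the groups identify the class of the extreme mice. The highest Gria2 gene level was that of an amphetamine-exposed male at 62.9% and the lowest that of a control male at 40.2%. At the Homer2 gene both extremes were control females, at 70.9% and 56.1%, whereas at the Homer2 promoter the highest was a control male at 7.24% and the lowest a control female at 0%. The Gria1 and Gria2 promoters reached their highest values, 7.46% and 33.3%, in control males.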
